A study of Mus musculus with 10 samples.

Results

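The tripartite motif (TRIM) genes were described across 10 RNA sequencing libraries of immortalized mouse embryonic fibroblasts. Members were all gene symbols made of Trim, a number and optional letters, of which the data held 65 among 23337 symbols. The 37 that reached 10 normalised reads in at least 2 libraries were described in full, and all 37 also passed the low-value filter of the test. The other 28 stayed below that level, and 15 of those had no read in any library. The groups were 3 libraries of Slfn2 WT fibroblasts left untreated, 3 of the same cells given mouse interferon-β (IFN-β, a type I interferon) at 5000 IU/ml for 6 h, and 2 libraries of Slfn2 KO fibroblasts in each of the same conditions. All cells grew in DMEM with 10% FBS. Replicates were duplicate or triplicate platings, and the labels do not say whether they came from separate cultures or lines. P-values therefore measure the spread between these samples, which may be technical, and a genotype difference cannot be told apart from a difference between the WT and KO cells used. The series asks how Slfn2, a Schlafen family gene, bears on type I interferon responses and NF-κB.

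TRIM proteins share a RING finger, B-box domains and a coiled coil, and most act as ubiquitin ligases. Their C-terminal ends differ, and the B30.2/SPRY end, the most common, binds targets such as viral capsids or the Fc part of antibodies. Type I interferon binds its receptor and activates transcription factors that act at interferon-stimulated response elements (ISRE), and several TRIM genes are known interferon targets that restrict viruses or tune the sensing of their RNA. Other TRIM proteins have roles far from immunity, in chromatin silencing, the cytoskeleton and stem cells.

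Slfn2 itself read 18.7, 17.4 and 15.5 in untreated WT-labelled libraries and 527, 449 and 573 with IFN-β, while KO-labelled libraries held 46.1 and 34.9 of it before and 75.0 and 171 after treatment. Untreated KO-labelled libraries were thus the higher ones and treated KO-labelled libraries the lower ones (untreated log2 difference 1.18 ± 0.36, limma adjusted p = 0.0908, or 0.0391 when replicate number was a block; treated −2.17 ± 0.36, limma adjusted p = 0.00816, and 0.0550 without KO-labelled IFN-β library 1). These values are read counts over the whole gene scaled by library (normalised reads), which cannot show a deleted part, and the deleted part is not given in the sources used here, so the groups are called WT-labelled and KO-labelled. Libraries held 13565815 to 16329729 reads. The 8 fibroblast markers summed to 170292 to 258135 normalised reads in WT-labelled and 233914 to 375450 in KO-labelled libraries. Of the 5 macrophage and leukocyte markers in the files, Ptprc, Tyrobp and Itgam read 0 to 1.88, while Csf1r and Cd68 had reads in all 10 libraries (15.8 to 58.4 and 26.8 to 46.3). The list summed to 53.0 to 72.6 in WT-labelled and 53.9 to 95.2 in KO-labelled libraries, and its part in the results was not tested. The 5 epithelial markers summed to 1.00 to 5.16 per library and the 4 endothelial markers to 2.90 to 20.2. The 5 striated muscle markers summed to 0 to 12.7, the highest value being that of Acta1. Of the 4 neuronal markers in the files, Tubb3 read 462 to 1285. Syn1 had reads in all 10 libraries and read 57.8 at most. Rbfox3 read 1.10 at most, and Snap25 had no read in any library. In such bulk libraries, fewer cells expressing a gene and less RNA per cell cannot be told apart.

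The promoter stretches below belong to members that responded to IFN-β. They are shown for the ISRE core, which most of them match exactly and the Trim56 stretch does not. Each runs from 170 bases before to 30 bases after a RefSeq transcript start (GRCm38.p6), 5′ to 3′ on the strand of the gene, with matches to the ISRE core GAAANNGAAA on either strand in capitals. They lie at chr7:102565453-102565652 (minus strand, Trim21), chr17:36836976-36837175 (plus, Trim26), chr7:104244287-104244486 (plus, Trim34a), chr7:104353320-104353519 (minus, Trim12c), chr7:104465164-104465363 (minus, Trim30a), chr7:104507820-104508019 (minus, Trim30d) and chr5:137116178-137116377 (minus, Trim56, which has no match).
Trim21: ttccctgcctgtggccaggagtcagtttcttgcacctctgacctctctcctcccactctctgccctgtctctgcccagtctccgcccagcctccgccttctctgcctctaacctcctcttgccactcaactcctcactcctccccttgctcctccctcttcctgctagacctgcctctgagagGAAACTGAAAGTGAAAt
Trim26: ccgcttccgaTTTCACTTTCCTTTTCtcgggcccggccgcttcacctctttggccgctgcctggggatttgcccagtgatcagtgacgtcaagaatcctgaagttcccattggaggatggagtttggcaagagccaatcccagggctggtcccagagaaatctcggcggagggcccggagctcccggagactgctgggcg
Trim34a: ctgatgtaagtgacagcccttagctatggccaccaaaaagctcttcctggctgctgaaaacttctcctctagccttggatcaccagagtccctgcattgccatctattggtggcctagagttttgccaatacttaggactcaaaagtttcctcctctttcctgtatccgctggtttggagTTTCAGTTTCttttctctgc
Trim12c: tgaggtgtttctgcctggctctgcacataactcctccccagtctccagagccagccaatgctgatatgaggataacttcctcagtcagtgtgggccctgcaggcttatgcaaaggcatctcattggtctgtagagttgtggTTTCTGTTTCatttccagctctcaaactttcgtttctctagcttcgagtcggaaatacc
Trim30a: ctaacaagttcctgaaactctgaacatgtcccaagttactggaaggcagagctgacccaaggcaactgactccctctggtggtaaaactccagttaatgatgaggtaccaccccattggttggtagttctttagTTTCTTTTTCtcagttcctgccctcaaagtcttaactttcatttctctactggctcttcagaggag
Trim30d: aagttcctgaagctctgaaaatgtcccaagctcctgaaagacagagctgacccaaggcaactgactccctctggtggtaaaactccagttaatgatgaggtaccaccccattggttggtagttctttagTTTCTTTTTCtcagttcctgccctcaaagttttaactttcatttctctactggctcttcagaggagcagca
Trim56: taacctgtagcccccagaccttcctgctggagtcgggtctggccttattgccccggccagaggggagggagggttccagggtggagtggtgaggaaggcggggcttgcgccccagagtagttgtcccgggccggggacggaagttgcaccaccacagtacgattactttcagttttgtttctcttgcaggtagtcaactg

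With IFN-β, 9 of the 37 TRIM genes rose in WT-labelled fibroblasts, by 1.57 to 6.65 on the log2 scale, and none fell. Of all 12313 tested genes, 2.21% passed. The risers were Trim12a, Trim30a, Trim34a, Trim14, Trim12c, Trim21, Trim56, Trim6 and Trim26. Trim12a, Trim14 and Trim34a reached the level for full description only through treated libraries. Their high treated values thus placed them among the 37, and counts of risers here and below include them. The test was limma-trend on log2 of normalised reads plus 1, with Benjamini-Hochberg adjustment over all tested genes and a threshold of 0.05. Log2 fold changes below are given with their standard errors. With the replicate number as a block, 10 members were called, Trim30d being the addition, against 4.95% of all genes.

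Trim21, the cytosolic antibody receptor that sends antibody-coated viruses to the proteasome, lies on chromosome 7 at 102557921 to 102565486 (GRCm38, minus strand). It read 13.2, 61.0 and 52.6 in untreated WT-labelled libraries and 861, 958 and 1062 after treatment. In KO-labelled libraries it read 13.6 and 44.3 untreated and 974 and 768 with IFN-β. Treated and untreated libraries were thus far apart in both genotypes, and library 1 was the lowest of each untreated group. Trim21 rose by 4.73 ± 0.58 on the log2 scale in WT-labelled cells (limma adjusted p = 0.00155) and by 5.07 ± 0.71 in KO-labelled cells (adjusted p = 0.00463).

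Trim30a is a mouse B30.2 gene whose product is known to restrain NF-κB signalling by degrading TAB2 and TAB3. It read 42.8, 52.3 and 39.2 in untreated WT-labelled libraries and 2686, 2895 and 3135 with IFN-β, a rise of 6.00 ± 0.88 (limma adjusted p = 0.00545). In KO-labelled cells it read 8.39 and 208 untreated, and 1877 and 3011 with IFN-β. The untreated KO-labelled libraries thus lay on either side of all 3 WT-labelled ones, with a 24.8-fold gap between them. The rise in KO-labelled cells was 5.75 ± 1.08 (limma adjusted p = 0.0283). Leaving out any WT-labelled library, or either treated KO-labelled one, ended that call (adjusted p from 0.0523 to 0.222), and edgeR gave an adjusted p of 0.0603. Within replicate numbers the KO-labelled difference was 7.64 for number 1 and 3.85 for number 2.

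Trim56, a ubiquitin ligase that promotes signalling by STING and TLR3, read 138, 91.0 and 238 in untreated WT-labelled libraries and 666, 684 and 773 after treatment. The KO-labelled values were 110.1 and 171 untreated, rising to 641 and 589.6. In neither genotype did treated and untreated libraries overlap. Trim56 rose by 2.28 ± 0.33 in WT-labelled cells (limma adjusted p = 0.00442) and by 2.16 ± 0.40 in KO-labelled cells (adjusted p = 0.0256). Dropping any treated library of either genotype, or untreated KO-labelled library 1, ended the KO-labelled call (adjusted p from 0.0531 to 0.194).

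Trim14, which lacks a RING finger and acts as an adaptor beside MAVS at mitochondria, had no read in any of the 5 untreated libraries. Treated libraries held 28.8, 47.0 and 61.6 (WT-labelled) and 47.5 and 90.2 (KO-labelled). Against a floor of 3 reads per library, the treated mean was at least 13.9-fold higher in WT-labelled and at least 21.9-fold higher in KO-labelled cells. The limma adjusted p was 0.000153 in WT-labelled and 4e-04 in KO-labelled cells. Trim14 overlaps Nans on the opposite strand, and the strand setting of the counting is not given in the sources used here.

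Trim12a and Trim12c are the mouse relatives of primate TRIM5, the factor that blocks incoming retroviral capsids. Trim12c read 28.5, 27.1 and 44.4 in untreated and 967, 1236 and 1163 in treated WT-labelled libraries. In KO-labelled libraries it read 11.5 and 49.0 untreated and 1056 and 1216 with IFN-β. Treated levels of Trim12c were close to each other in all 5 libraries, and it rose by 5.06 ± 0.45 in WT-labelled and 5.50 ± 0.55 in KO-labelled cells (limma adjusted p = 0.000189 and 0.000539). Trim12a went from 1.10, 5.81 and 0 to 197, 279 and 259 in WT-labelled cells, a rise of 6.65 ± 0.73 (limma adjusted p = 0.000789). In KO-labelled cells it went from 2.10 and 13.2 to 340.1 and 413, a rise of 5.82 ± 0.90 (limma adjusted p = 0.00863). Dropping untreated KO-labelled library 1 (adjusted p = 0.0532) or treated KO-labelled library 2 (adjusted p = 0.0813) ended this call.

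Trim34a, the counterpart of human TRIM34, read 6.59, 1.94 and 9.29 in untreated WT-labelled libraries and 288, 349 and 423 after treatment. In KO-labelled libraries it read 3.15 and 17.9 untreated and 342 and 441 with IFN-β. No treated library came near an untreated one. Trim34a rose by 5.84 ± 0.61 (limma adjusted p = 0.000548) and 5.46 ± 0.75 (adjusted p = 0.00411) in WT-labelled and KO-labelled cells. Reads of the paralogues may have been split or dropped by the counting. Of the 50-base stretches of Trim34a transcripts, 39.8% also occur in Trim34b. For Trim12c, Trim12a, Trim30d and Trim30a, the shares found in other family genes were 28.8%, 7.86%, 7.49% and 5.98%. The closest gene to Trim12c and Trim12a was Trim5 (24.2% and 5.04%), which is not among the members. These shares do not measure the error of the values, which was not tested.

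Trim26, a ubiquitin ligase acting on the signalling that leads to interferon production, was already abundant at 583, 776 and 681 normalised reads in untreated WT-labelled libraries. It reached 1857, 2089 and 2092 with IFN-β, a rise of 1.57 ± 0.14 (limma adjusted p = 0.000219). In KO-labelled libraries it read 643 and 752 untreated and 2585 and 2491 with IFN-β, a rise of 1.87 ± 0.17 (adjusted p = 4e-04). Both treated KO-labelled libraries were above all 3 treated WT-labelled ones, but the difference between the responses was 0.29 ± 0.22 and did not pass the test (unadjusted p = 0.222).

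Trim6, whose human counterpart makes free ubiquitin chains that aid the kinase IKKε, and Trim30d, a neighbour and relative of Trim30a, stood nearest the threshold in WT-labelled cells. Trim6 read 30.7, 39.7 and 60.9 in untreated and 133, 209 and 172 in treated WT-labelled libraries, and rose by 1.98 ± 0.36 (limma adjusted p = 0.0194). Dropping untreated library 1 or 2, or treated library 2 or 3, of the WT-labelled cells ended the call (adjusted p from 0.0789 to 0.121). In KO-labelled cells Trim6 read 18.9 and 38.6 untreated and 97.2 and 102 with IFN-β, a difference of 1.84 ± 0.44 with an adjusted p of 0.106, and 0.00931 with the replicate block (limma). Groups did not overlap in either genotype.

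Trim30d read 39.5, 99.7 and 115 in untreated and 808, 773 and 917 in treated WT-labelled libraries, a difference of 3.42 ± 0.78 (limma adjusted p = 0.0712, and 0.0113 with the replicate block). It passed the test without KO-labelled untreated library 1 or 2 (adjusted p = 0.000906 and 0.000973), which enter this comparison only through the shared estimate of the spread. In KO-labelled cells the values were 19.9 and 260.0 untreated and 625 and 817 treated, a difference of 3.28 ± 0.96 (adjusted p = 0.290, and 0.0502 with the block). Without KO-labelled untreated library 2 the difference was 5.10 and passed the test (limma adjusted p = 0.00134). Every treated library lay above every untreated one.

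**Figure D1:**
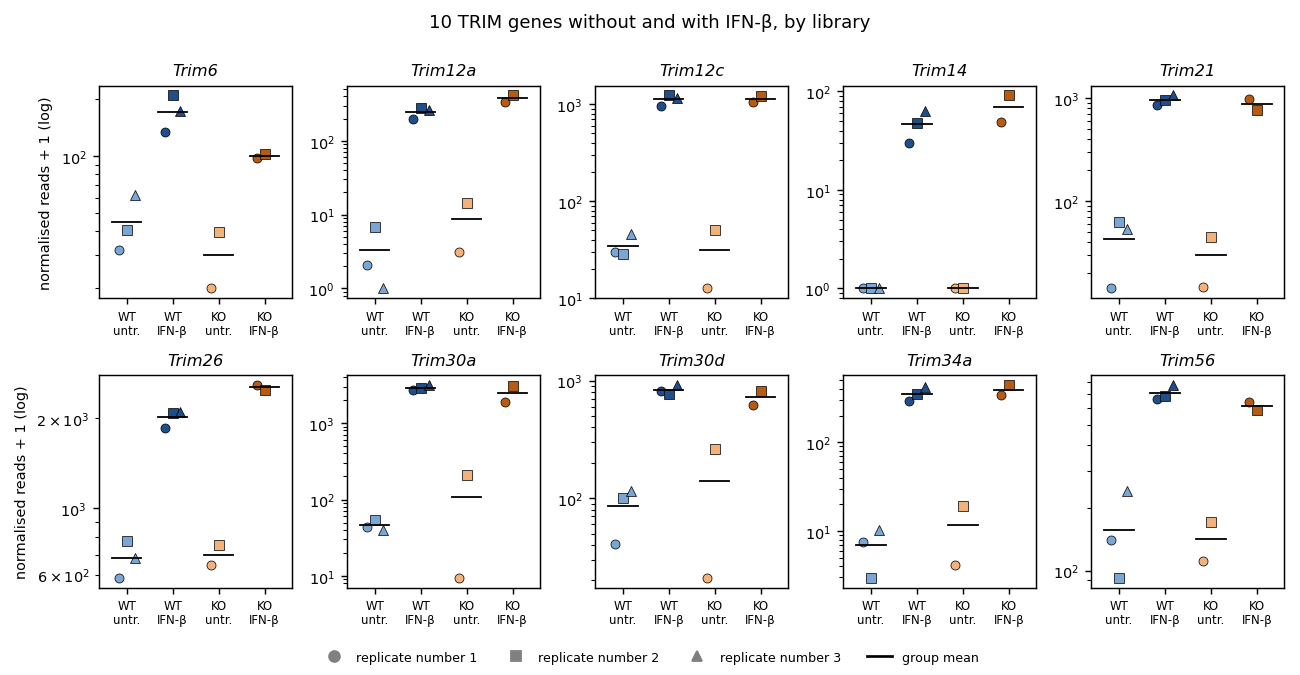
Normalised reads plus 1 on a log axis for the 9 TRIM genes that rose with IFN-β in WT-labelled cells and for Trim30d, with a point per library, shaped by replicate number, and a bar at the group mean. Treated libraries lie above untreated ones in every panel, and the 2 untreated KO-labelled points are far apart for Trim30a (8.39 and 208).

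In KO-labelled cells 8 of 37 members rose (1.83% of all tested genes were called higher), and none fell (1.84% were called in either direction). These 8 were the risers of the WT-labelled cells other than Trim6, and the replicate block gave 9 with Trim6 included (3.48% of all genes). Without KO-labelled IFN-β library 2 the count was 5, and the share of all genes called was 1.07%. The groups did not overlap for 15 members that were higher and 3 that were lower in treated KO-labelled libraries, against 10.7% and 9.67% of all genes. In WT-labelled cells they did not overlap for 10 higher members, which were the same 10 genes described above, and 1 lower member, against 7.48% and 4.11%.

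Among these 10 genes, the untreated KO-labelled libraries differed by replicate. Library 2 was above library 1 for all 9 of them with reads, by 1.17-fold for Trim26 to 24.8-fold for Trim30a (median 4.25-fold), and by at least 2-fold for 7. In untreated WT-labelled cells the same ratio ran from 0.294 (Trim34a) to 5.29 (Trim12a), with 6 of 9 genes above 1 and 3 at 2-fold or more. Of the other 27 members, library 2 of the untreated KO-labelled cells was above library 1 for 14, and for none by 2-fold. In treated KO-labelled cells the ratio for the 10 genes ran from 0.789 (Trim21) to 1.90 (Trim14). The part that this gap plays in the KO-labelled comparisons was not tested beyond leaving each library out.

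The 27 remaining members gave log2 differences between −0.36 (Trim13) and 0.43 (Trim23) in WT-labelled cells, and between −0.58 (Trim36) and 0.43 (Trim45) in KO-labelled cells. None had an unadjusted p under 0.05 in either (limma without the block). The 27 are those left after the called genes, so small differences follow in part from how they were picked. With the replicate block 12 of the 37 members had such a p in WT-labelled and 11 in KO-labelled cells, so some of the 27 did. The 27 included every expressed member of the chromatin class (Trim24, Trim28, Trim33 and Trim66, with a PHD finger and bromodomain) and of the NHL class (Trim2, Trim3, Trim32 and Trim71), whose C-terminal propeller binds RNA or protein. By C-terminal class, 8 of the 19 reported B30.2/SPRY genes rose in WT-labelled cells and 7 in KO-labelled cells (median log2 difference 0.22 and 0.38, against −0.03 over all tested genes in both). Both counts include Trim12a, Trim14 and Trim34a, which were reported only through their treated libraries. The shares of all tested genes called higher were 2.21% in WT-labelled and 1.83% in KO-labelled cells. The ninth riser, Trim56, is among the 3 reported genes with no further domain. No member of the other classes passed.

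**Figure D2:**
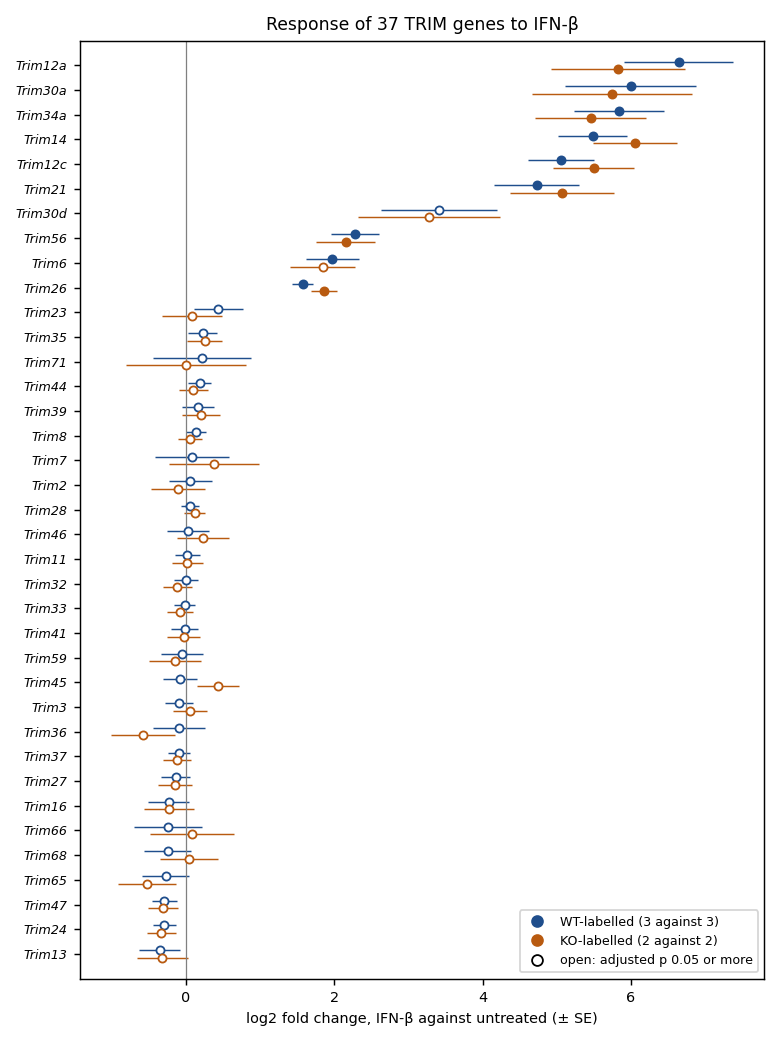
Log2 fold change of each of the 37 TRIM genes with IFN-β against untreated, with standard errors, in WT-labelled (3 against 3 libraries) and KO-labelled cells (2 against 2). Filled points passed the test, and the 27 genes at the bottom stay between −0.58 and 0.43.

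The difference between the responses of KO-labelled and WT-labelled cells passed the test for none of the 37 members with limma, edgeR, DESeq2 or the replicate block. None had an unadjusted p under 0.05, and the smallest was 0.198 (Trim45, limma). Estimates ran from −0.82 (Trim12a, 95% interval −3.44 to 1.80) to 0.57 (Trim14, −1.09 to 2.23) on the log2 scale. For Trim30a the estimate was −0.25 (−3.40 to 2.90), for Trim21 0.34 (−1.72 to 2.40) and for Trim56 −0.13 (−1.29 to 1.04). These intervals are wide: over the members, the 95% interval reached between 0.41 and 3.15 to each side of the estimate. Over all 12313 genes limma called 0 and DESeq2 called 1 (0.00812%), which was no member.

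Trim25, the ligase known to join ubiquitin chains to RIG-I, fell just below the level for full description. It read 1.10, 0 and 0 in untreated and 4.12, 3.999 and 7.70 in treated WT-labelled libraries. In KO-labelled libraries it read 0 and 0.942 untreated and 8.45 and 10.0 with IFN-β. All 5 treated libraries were above all 5 untreated ones, at 1 read in all for each untreated group against 16 and 19 reads with IFN-β. It did not pass the low-value filter and was not tested. At the same edge Trim62 had a second-largest value of 7.21, while inside it Trim7 had 14.1 and Trim66 28.8.

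The RIG-I-like receptor pathway, in which several TRIM proteins act, held 18 tested genes, and 5 rose in each genotype. Of all tested genes, 2.21% were called higher in WT-labelled and 1.83% in KO-labelled cells. In WT-labelled cells the transcription factor gene Irf7 rose by 7.24 ± 0.57 and the RNA sensor genes Dhx58 (LGP2), Ifih1 (MDA5) and Ddx58 (RIG-I) by 5.29 ± 0.33, 4.63 ± 0.49 and 4.14 ± 0.37. Zc3hav1 (ZAP, which works with TRIM25 against viral RNA) rose by 2.69 ± 0.18. In KO-labelled cells the same 5 rose by 8.92 ± 0.70, 5.06 ± 0.41, 5.62 ± 0.59, 4.48 ± 0.45 and 2.90 ± 0.22 (limma adjusted p from 2.68e-05 to 0.000764 over both genotypes). The list median was 0.27 in WT-labelled and 0.40 in KO-labelled cells, against −0.03 over all genes. With the replicate block Rnf135 (Riplet) and Tmem173 (STING) joined them in WT-labelled cells (1.24 and 0.68, limma adjusted p = 0.0103 and 0.0362). The block called 4.95% of all genes in that comparison. Between genotypes none of the 18 passed, against 6.23% of all genes untreated and 6.55% with IFN-β. The replicate block called 5 untreated (1 higher, 4 lower in KO-labelled cells) and 6 with IFN-β (2 higher, 4 lower). The block called 26.6% and 26.0% of all genes, so these counts lie near the background. For Ifih1 and Ddx58 the untreated genotype value turned on the library. Over all libraries the log2 differences were −0.91 and −0.34 (limma adjusted p = 0.394 and 0.716). They were −2.12 and −1.20 without untreated KO-labelled library 2 (adjusted p = 0.00235 and 0.0495), and 0.30 and 0.51, not passing, without library 1.

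Of the other-named TRIM proteins, 3 were tested, and Pml, the organiser of nuclear bodies, rose by 2.09 ± 0.12 in WT-labelled and 2.55 ± 0.15 in KO-labelled cells (limma adjusted p = 1.57e-05 and 3.61e-05). Mid1 and Mid2 did not pass. Among 14 tested ubiquitin-conjugating enzymes and chain partners of TRIM ligases, Ube2l6, which carries ISG15 as well as ubiquitin, rose by 3.80 ± 0.41 in WT-labelled cells (adjusted p = 0.000652). In KO-labelled cells it rose by 3.10 ± 0.50 (limma adjusted p = 0.0113), which became 0.0511 on dropping untreated KO-labelled library 1 and 0.120 on dropping treated KO-labelled library 2. The other 13 did not pass in either genotype. Over all tested genes, 2.21% were called higher in WT-labelled and 1.83% in KO-labelled cells.

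Of the 9 members that rose in WT-labelled cells, 5 lie together on mouse chromosome 7. Within 1 Mb of Trim30a (chromosome 7, 104409025 to 104465193, minus strand, GRCm38) the annotation places 8 of the 65 members, of which 6 were reported: Trim6, Trim34a, Trim12a, Trim12c, Trim30a and Trim30d. In WT-labelled cells 5 of these 6 rose (all 6 with the replicate block), with a median log2 difference of 5.45, and in KO-labelled cells 4 of 6 rose (5 with the block), with a median of 5.48. Trim12a and Trim34a are among the 6 only through their treated libraries. Over all tested genes, 2.21% were called higher in WT-labelled and 1.83% in KO-labelled cells. With the block 4.95% and 3.48% were called in either direction. Elsewhere in the genome 4 of 31 reported members rose in each genotype (Trim14, Trim21, Trim26 and Trim56), and the medians were −0.00385 and 0.04. The locus also holds Trim30b and Trim34b, which stayed below the reporting level. Trim30b had no read in any untreated library but, after treatment, 10 reads in WT-labelled and 6 in KO-labelled cells, and Trim34b had 1 read in all. Reads of Trim34b that match Trim34a as well may have been dropped by the counting. Trim21 lies on the same chromosome outside this window.

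**Figure D3:**
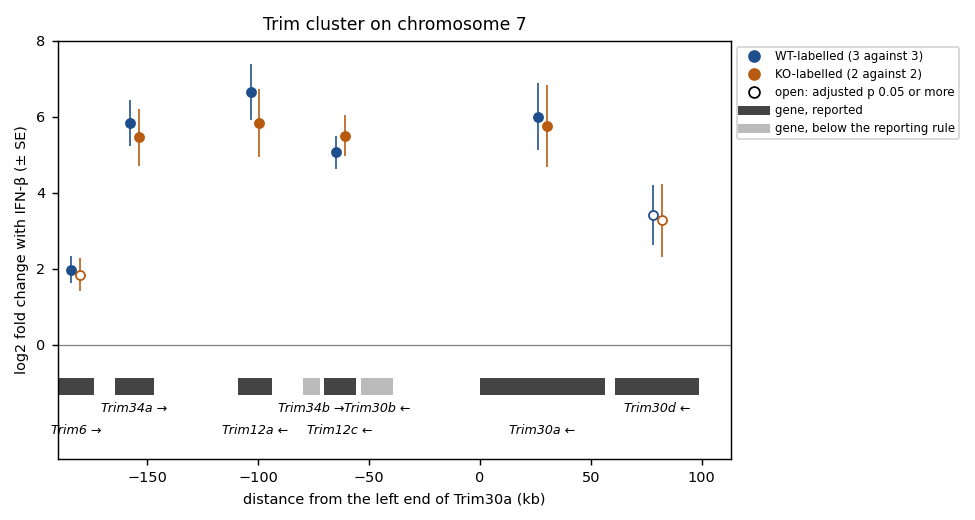
Log2 fold change with IFN-β (± SE) of the reported Trim genes of the chromosome 7 locus, drawn over the genes to scale, with distance in kb from the left end of Trim30a. Trim34a, Trim12a, Trim12c and Trim30a lie between 5.06 and 6.65 in both genotypes, while Trim6 and Trim30d lie between 1.84 and 3.42. Light bars mark Trim34b and Trim30b, which were not reported.

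RefSeq promoter windows (250 bases before to 50 after each start) were at hand for 28 of the 37 members. The ISRE core GAAANNGAAA was found on either strand in 7 of the 9 interferon-responsive members with a window, counting Trim30d, and in 1 of the 19 others (Trim2). Over all genes with a window the share was 3.99%. The windows without an exact match were those of Trim56, printed in part above, and Trim6, while Trim14 had no window. Near matches were not searched, so an element that differs by a letter would be missed. The core began 14 and 20 bases after the start in Trim21, where a pair of matches overlap, 160 and 154 bases before it in Trim26, 11 bases after it in Trim12a and Trim34a, and 29 bases before it in Trim12c. In the Trim30a window printed in part above and in Trim30d it began 36 and 41 bases before the start. There it lay within a run of 118 identical bases shared by these windows. Another Trim30a window held the core 3 bases after its start. The windows of Trim12a and Trim12c are also alike around the core, though their longest identical run, of 71 bases, does not hold it. Matches within these paralogue pairs are not independent. A second motif, GAS (TTCNNNGAA), was searched in the same windows. It was found in 0 of the 9 interferon-responsive members and in 2 of the 19 others, against 9.55% of all genes with a window. A match of letters is not a shown binding site, and no binding was measured.

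Between the genotypes, Trim71 and Trim28 were lower in KO-labelled cells. In untreated cells 2 of 37 were lower in KO-labelled libraries and none higher, while 6.23% of all tested genes were called (3.23% as lower). With IFN-β the same 2 were lower, with 6.55% of all genes called (3.64% as lower). The replicate block gave 9 and 10 members, against 26.6% and 26.0% of all genes. In each fit the share of members lay near that of all genes.

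Trim71 (LIN41), an RNA-binding stem cell protein and a classical target of let-7 microRNAs, read 86.7, 16.5 and 58.8 in untreated and 71.1, 38.0 and 50.1 in treated WT-labelled libraries. In KO-labelled cells it stood at 1.05 and 0 before and 1.06 and 0 after treatment, which is 1 read in each group. Every WT-labelled library held Trim71 reads far above those of every KO-labelled library, with or without interferon. The WT-labelled mean was 103 times the KO-labelled one in untreated cells (95% counting interval 18.7 to 4209) and 100.4 times with IFN-β (19.1 to 4292). The fitted log2 difference was −4.98 ± 0.74 untreated and −5.19 ± 0.74 with IFN-β (limma adjusted p = 0.00481 and 0.00382). Trim71 overlaps C130032M10Rik on the opposite strand.

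Trim28 (KAP1), the co-repressor through which KRAB zinc finger proteins silence retroelements, read 8323, 9788 and 7989.9 in untreated and 9175, 8914 and 8943 in treated WT-labelled libraries. In KO-labelled cells it stood at 5781 and 5835 before and 6254 and 6342 after treatment. Every KO-labelled library was below every WT-labelled one. The log2 difference was −0.58 ± 0.13 untreated (limma adjusted p = 0.0332) and −0.52 ± 0.13 with IFN-β (adjusted p = 0.0493). The untreated call was lost in 9 of 10 repeats that left out 1 library, the exception being WT-labelled untreated library 2 (adjusted p from 0.0545 to 0.156), and so was the call with IFN-β (0.0654 to 0.220). Trim28 overlaps Zbtb45 on the opposite strand.

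With the replicate block, in untreated cells Trim71, Trim28, Trim66 and Trim3 were lower in KO-labelled libraries and Trim35, Trim46, Trim2, Trim13 and Trim59 higher, and with IFN-β the same 9 differed, with Trim36 lower as well. With edgeR and the block the counts were 9 and 9 (27.2% and 26.7% of all genes), and DESeq2 without it called 4 with IFN-β (12.2%). Groups did not overlap for 5 higher and 5 lower members in untreated cells (15.7% and 15.9% of all genes), and for 10 higher and 11 lower with IFN-β (20.0% and 20.4%).

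Besides Trim71 and Trim28, 5 members had an unadjusted p under 0.05 in both genotype comparisons without passing the adjusted test. Trim66, a TIF1 family chromatin protein, read 37.3, 21.3 and 18.6 in untreated and 28.8, 26.0 and 11.6 in treated WT-labelled libraries, against 6.29 and 9.42, and 7.39 and 9.11, in KO-labelled ones. Trim36, a microtubule-binding ligase, read 46.1, 36.8 and 71.2 and then 44.3, 39.0 and 57.8 in WT-labelled libraries, against 27.3 and 21.7, and 12.7 and 20.0, in KO-labelled ones. The Trim66 differences were −1.55 ± 0.52 and −1.23 ± 0.52 (limma adjusted p = 0.121 and 0.213, and 0.0120 and 0.0255 with the block). Both genes stood lower in each KO-labelled library than in each WT-labelled one of the same treatment. With IFN-β the Trim36 difference was −1.48 ± 0.39 (limma adjusted p = 0.0603, and 0.0175 with the block).

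Trim46, which bundles microtubules at the start of the axon, read 157, 249 and 149 in untreated and 161, 228 and 168 in treated WT-labelled libraries, against 246 and 382, and 301 and 430.1, in KO-labelled ones. The differences were 0.77 ± 0.32 untreated (limma adjusted p = 0.209, and 0.0107 with the block) and 0.97 ± 0.32 with IFN-β (adjusted p = 0.116, and 0.00336 with the block). Trim46 overlaps Krtcap2 on the opposite strand, and Krtcap2 reads could not be told apart from its own without strand. Trim35, a B30.2 ligase, read 2722, 2881 and 2035 in untreated and 3365, 3377 and 2235 in treated WT-labelled libraries, against 3444 and 3899.7, and 4271 and 4457. Library 3 was the lowest of each WT-labelled group. The Trim35 differences were 0.54 ± 0.22 and 0.57 ± 0.22 (limma adjusted p = 0.197 and 0.175, and 0.0210 and 0.0159 with the block). Trim33 (TIF1γ), which acts on SMAD4 in TGF-β signalling, read 812 to 1099 in WT-labelled and 1197 to 1376 in KO-labelled libraries, with adjusted p of 0.159 untreated and 0.231 with IFN-β (limma).

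**Figure D4:**
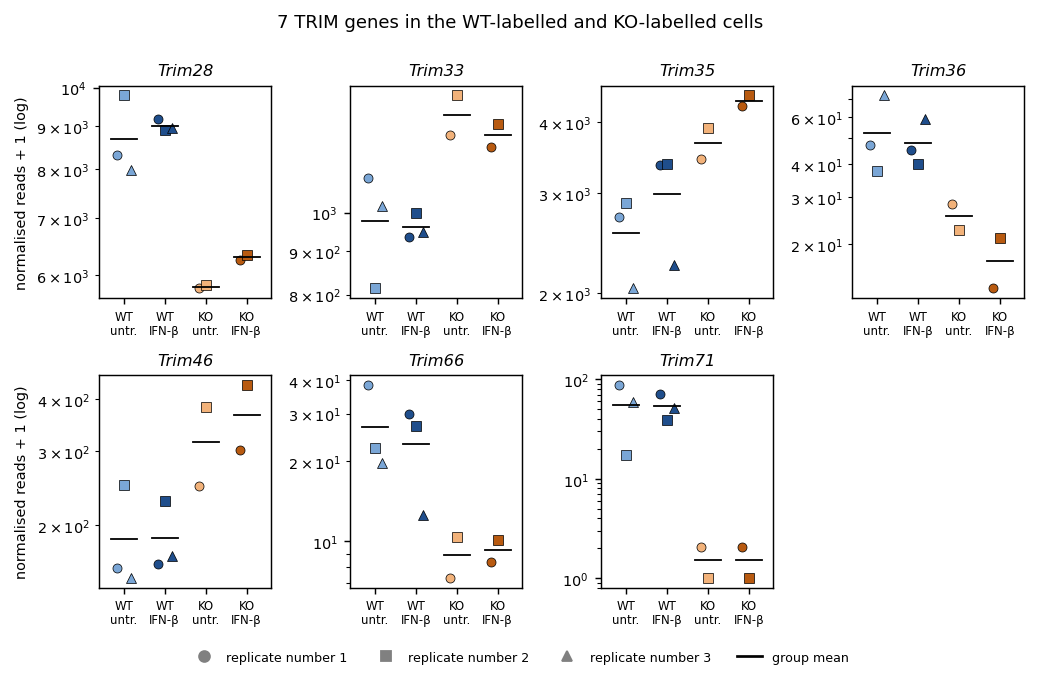
Normalised reads plus 1 on a log axis for the 7 TRIM genes with an unadjusted p under 0.05 in both genotype comparisons, with a point per library, shaped by replicate number, and a bar at the group mean. Trim71 and Trim28 passed the adjusted test, and KO-labelled libraries hold 1.06 normalised reads of Trim71 at most.

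Trim21, Trim56 and Trim30a, described in every comparison for their role in antiviral signalling, did not pass between genotypes, and Trim25 was not tested. Trim21 differed by −0.49 ± 0.64 untreated and −0.15 ± 0.64 with IFN-β, and Trim56 by −0.07 ± 0.36 and −0.20 ± 0.36. For Trim30a the differences were −0.04 ± 0.99 and −0.29 ± 0.99. The untreated Trim30a value turned on the library: it was 2.20 without KO-labelled untreated library 1 and −2.28 without library 2, and both passed the test (limma adjusted p = 0.00723 and 0.00711). Among the partner lists, Cyld, a deubiquitinase that restrains NF-κB, was higher in KO-labelled cells by 1.22 ± 0.17 untreated (limma adjusted p = 0.00389). With IFN-β it was higher by 0.98 ± 0.17 (adjusted p = 0.0111, and 0.106 on dropping treated KO-labelled library 2). With the block 4 of the 14 partner genes differed untreated and 6 with IFN-β (26.6% and 26.0% of all genes), against 1 and 1 without it (6.23% and 6.55%).

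Per kb of exon, Trim28 stood first in all 4 groups, at 2092 normalised reads per kb in untreated WT-labelled cells and 1397 in untreated KO-labelled cells. Trim59, a membrane-anchored ligase, Trim44, which lacks a RING finger and stabilises its partners, and Trim35 followed in untreated WT-labelled cells at 594, 559 and 551 per kb. The ranges of these 3 over the WT-labelled untreated libraries overlapped (460 to 727, 478 to 676 and 441 to 624), so their order is within the spread. IFN-β reordered the family: Trim30a went from rank 26 of 37 to rank 2 in WT-labelled cells (10.9 to 707 per kb) and from rank 23 to rank 5 in KO-labelled cells (26.3 to 594 per kb). Trim12c went from rank 30 to rank 8 and Trim21 from rank 25 to rank 12 in WT-labelled cells. At the low end, Trim7 and Trim66 stayed below 4 per kb in every library. By normalised reads per gene, the highest means were those of Trim28, Trim44 and Trim35, and none of the 3 passed the test with IFN-β.

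**Figure D5:**
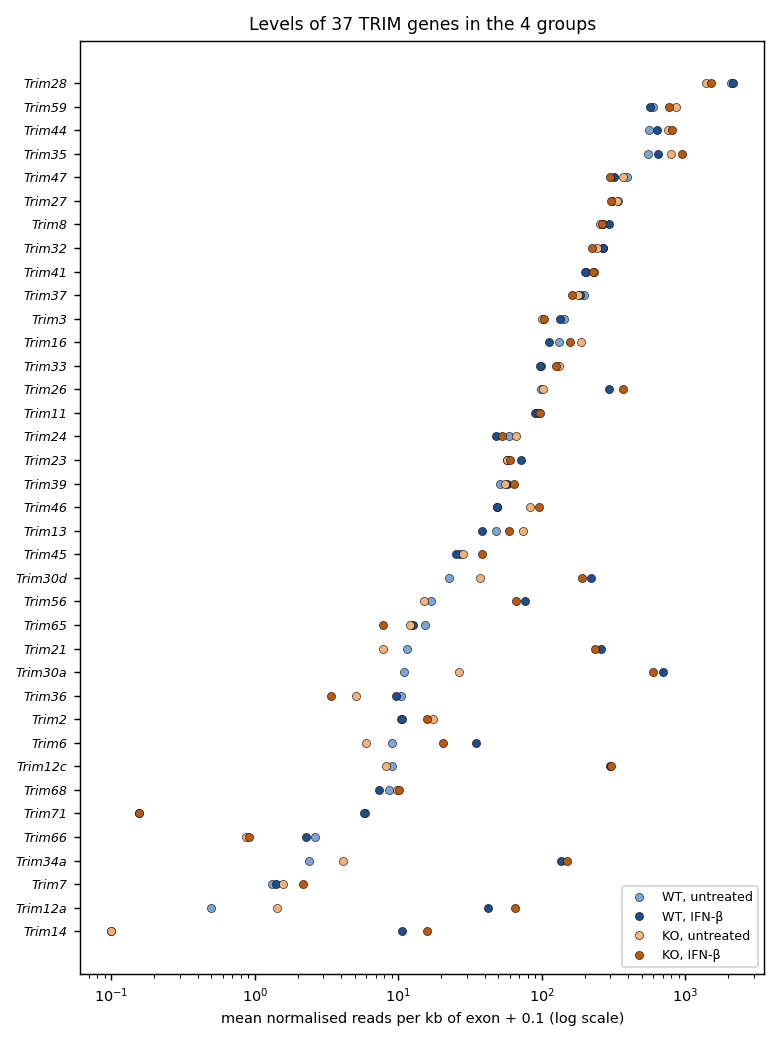
Mean normalised reads per kb of exon plus 0.1 on a log axis for each of the 37 reported TRIM genes in the 4 groups, ordered by the untreated WT-labelled level. Trim28 leads in every group, and in interferon-responsive genes the treated groups lie far to the right of the untreated ones, as for Trim30a at 10.9 and 707 in WT-labelled cells.

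Of the 28 members below the reporting level, 13 had reads. The muscle RING finger genes Trim54, Trim55 and Trim63 had 5 reads between them, all of Trim54 and all in KO-labelled libraries. Neuronal Trim9 had none and Trim67 had 2. Trim69 read 0.942 to 11.8 and Trim62 2.89 to 7.54 over the 10 libraries. For all of these a level of 3 reads per library, 2.73 to 3.29 normalised reads, is the limit that a count of 0 allows, and floors and counting intervals cover counting error only.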

How the data were processed

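RNA sequencing of total RNA (RNeasy, directional TruSeq Stranded Total RNA libraries) was deposited as a table per library. The deposited values are a signal. The authors scaled each library's gene reads by its own size factor: dividing by the step of the library returned whole reads, within 0.001 reads, for 100% of values. Per the submitters' processing notes the tools were cutadapt 1.13, STAR 2.5.2a, HTSeq and DESeq2 and the genome was mm10. The annotation and strand setting are not given in the sources used here. Multi-mapping reads of paralogues and antisense reads can therefore affect single members.

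The 37 members were tested within all 12313 genes kept by filterByExpr (edgeR 4.0.16, minimum count 10, applied to those whole reads). The test was limma-trend (version 3.58.1 under R 4.3.3) on the log2 of deposited values with a pseudocount of 1. The fit had a mean for each of 4 groups over all 10 libraries, and 5 comparisons were made, two-sided, with Benjamini-Hochberg adjustment over all genes. A fold change of a low gene is understated by the pseudocount. A count test was not the main one because the deposited unit is not raw counts; edgeR and DESeq2 1.42.0 on the recovered reads were alternatives. The scripts were tested on simulated data.

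Replicate numbers were checked as pairs. Correlations of deviations from the group mean were 0.480 to 0.871 for 13 pairs of libraries with the same number. For other pairs they ran from −0.871 to 0.318. In a KO-labelled group the 2 deviations mirror each other. Values with these libraries thus repeat with the sign changed, and the 13 pairs are not independent. Between the 2 WT-labelled groups, same-number values were 0.608, 0.672 and 0.789, and the others ran from −0.541 to 0.00951. The numbers were taken as pairs on this basis. This rests on the data, as the labels do not say what a number marks. Only the fits with the replicate block use the pairing. The main test leaves it out, so its p-values and counts are not paired. The blocked value is given for results described singly where it changes the call, and for counts that it moves by over 1.5 times.

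Members and gene lists were chosen with earlier results of these data known. Trim21, Trim25, Trim30a, Trim56, every member passing the test and the 3 with the highest mean were named by rule; up to 4 passing genes of each other list were to be named, and Zc3hav1, the fifth of its list, Ifih1 and Ddx58 between genotypes, and the 5 members near the genotype threshold were named after their values were seen. Domain classes follow textbook knowledge. Positions and exon lengths are from GENCODE M21 (GRCm38), which held all 65 symbols, and promoters from RefSeq GRCm38.p6.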

Additional observations from a re-analysis of the deposited data

How the results depend on the processing

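Leaving out each of the 10 libraries in turn gave 8 to 10 members called with IFN-β in WT-labelled cells, 5 to 9 in KO-labelled cells (5 without KO-labelled IFN-β library 2), 1 to 2 between genotypes in untreated cells, 1 to 2 with IFN-β, and 0 for the difference of responses. With the replicate block the genotype counts were 9 untreated and 10 with IFN-β, and edgeR with the block gave 9 and 9, against 2 and 2 in the reported test. With IFN-β the limma block added Trim30d in WT-labelled and Trim6 in KO-labelled cells and changed no other member's call. Fitting without the filter on low values tested 16590 genes and left 1 call in each genotype comparison (Trim71), and DESeq2 called 4 members with IFN-β. All other alternatives (pseudocounts of 0.5 and 4, TMM scaling, edgeR) kept the counts within 1.5 times. Of the log2 fold changes of members that passed, none changed direction under these alternatives. Their side of the threshold was kept in 337 repeats and lost in 41, of which 3 did not leave out a library (Trim28 in both genotype comparisons without the filter, Trim30a in KO-labelled cells with edgeR). With 2 or 3 libraries a group, the precision of the difference of responses limits what can be said of it. The cause of these changes was not tested.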
